A study of Mus musculus with 27 samples.

Results

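Of the 21823 protein-coding genes in the table, 10 genes of the acute phase response and of metal binding are described here. They are the serum amyloid A genes Saa1, Saa2 and Saa4, the orosomucoid genes Orm1 and Orm2, haptoglobin (Hp), lipocalin 2 (Lcn2), the inter-alpha-trypsin inhibitor family gene Itih4 and the metallothionein genes Mt1 and Mt2. They were taken by their symbols, and each symbol was found once. The rule uses no measured value, but the set was proposed with earlier results of these data known. Levels are FPKM, that is, fragments scaled by the length of the transcript and by how many fragments of the library were mapped. All 10 genes were among the 12952 that reached an FPKM of 1 in at least 3 libraries and were tested.

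RNA came from the liver of wild-type (WT) female mice, C57BL/6 in the labels and C57BL/6N in the study's methods, without any transgene or treatment. Livers were taken before any mating (NP) or from pregnant mice on day 8 (dpc8) or day 16 (dpc16) after coitus, and the methods give 1 range of adult ages for all mice but no age by group. Areas of 2 mm2 of each of 3 lobular zones were separated by laser microdissection, in which a laser frees chosen areas of a frozen section: zone 1 lies around the portal vein, zone 3 around the central vein and zone 2 between them. Each of the 9 groups had 3 libraries, 27 in all, and the study calls the replicates independent experiments. The labels tie no library to a mouse, so that p-values measure the spread between these libraries, which may be technical, and libraries of different zones may share a mouse.

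The acute phase response is the change in plasma proteins that the liver secretes after infection or tissue injury. Interleukin-6 acts on hepatocytes through the receptor chains Il6ra and Il6st and the transcription factor STAT3, interleukin-1 acts through NF-kB and C/EBP factors, and glucocorticoids strengthen both. Positive acute phase proteins, among them serum amyloid A, orosomucoid and haptoglobin, then rise in plasma, and negative ones such as albumin and transthyretin fall. Metallothioneins are small cysteine-rich proteins that bind zinc and copper, and their genes are switched on by metals through the factor MTF-1 and by glucocorticoids.

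The FPKM sum of a library ranged from 499866 to 988500, and the depth, estimated from the steps between low FPKM values, from 7.53 to 33.4 M (mega) mapped reads with a median of 16.4 M. Zone labels and zone genes went together: the mean log2(FPKM + 1) of 8 periportal genes ranged from 8.41 to 9.50 in zone 1 and from 2.62 to 5.07 in zone 3. The hepatocyte gene Alb held 3.71% to 21.0% of the FPKM sum. All mice are labelled female, yet in 6 libraries 4 Y-chromosome genes summed to 7.92 to 23.2 FPKM, against at most 2.97 in the 21 others. In NP they are replicate 1 of zone 1 and replicate 2 of zone 3. At dpc8 they are replicate 1 of zone 1 and replicate 2 of zone 2, and at dpc16 replicate 3 of both zone 2 and zone 3. The 6 also held 991 to 4634 FPKM over 12 connective tissue and smooth muscle genes, against 84.7 to 598 in the others. Both values go against a library of female hepatocytes alone, and these 6 are called the Y-positive libraries below. Several comparisons over the mean of the zones and between zones are given with and without them. The log2 fold changes between stages within a single zone and the SDs within groups are given with them.

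The 10 genes together held 0.419% to 0.775% of the FPKM sum in NP libraries, 0.643% to 1.58% in dpc8 libraries and 0.855% to 2.41% in dpc16 libraries. By median FPKM over the 27 libraries, which is scaled to length, Hp (1505) and Itih4 (1246) were the most abundant of them, followed by Mt2 (794), Mt1 (660.2) and Orm1 (657), and Saa4 (87.6), Orm2 (46.1), Saa1 (37.9), Saa2 (28.0) and Lcn2 (27.2) were lower. The order differed by stage: at dpc16 the median of Itih4 (7538) lay above that of Hp (2421), and in NP that of Orm1 (477) above those of Mt1 (269) and Mt2 (253). The groups were ordered by mean for each gene, and of the 8 steps between neighbours in that order a gap wider than both SDs was found at 2 for Itih4, at 1 for Saa1 and at none for the 8 others. In bulk tissue fewer cells of a type and less RNA per cell cannot be told apart.

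**Figure D1:**
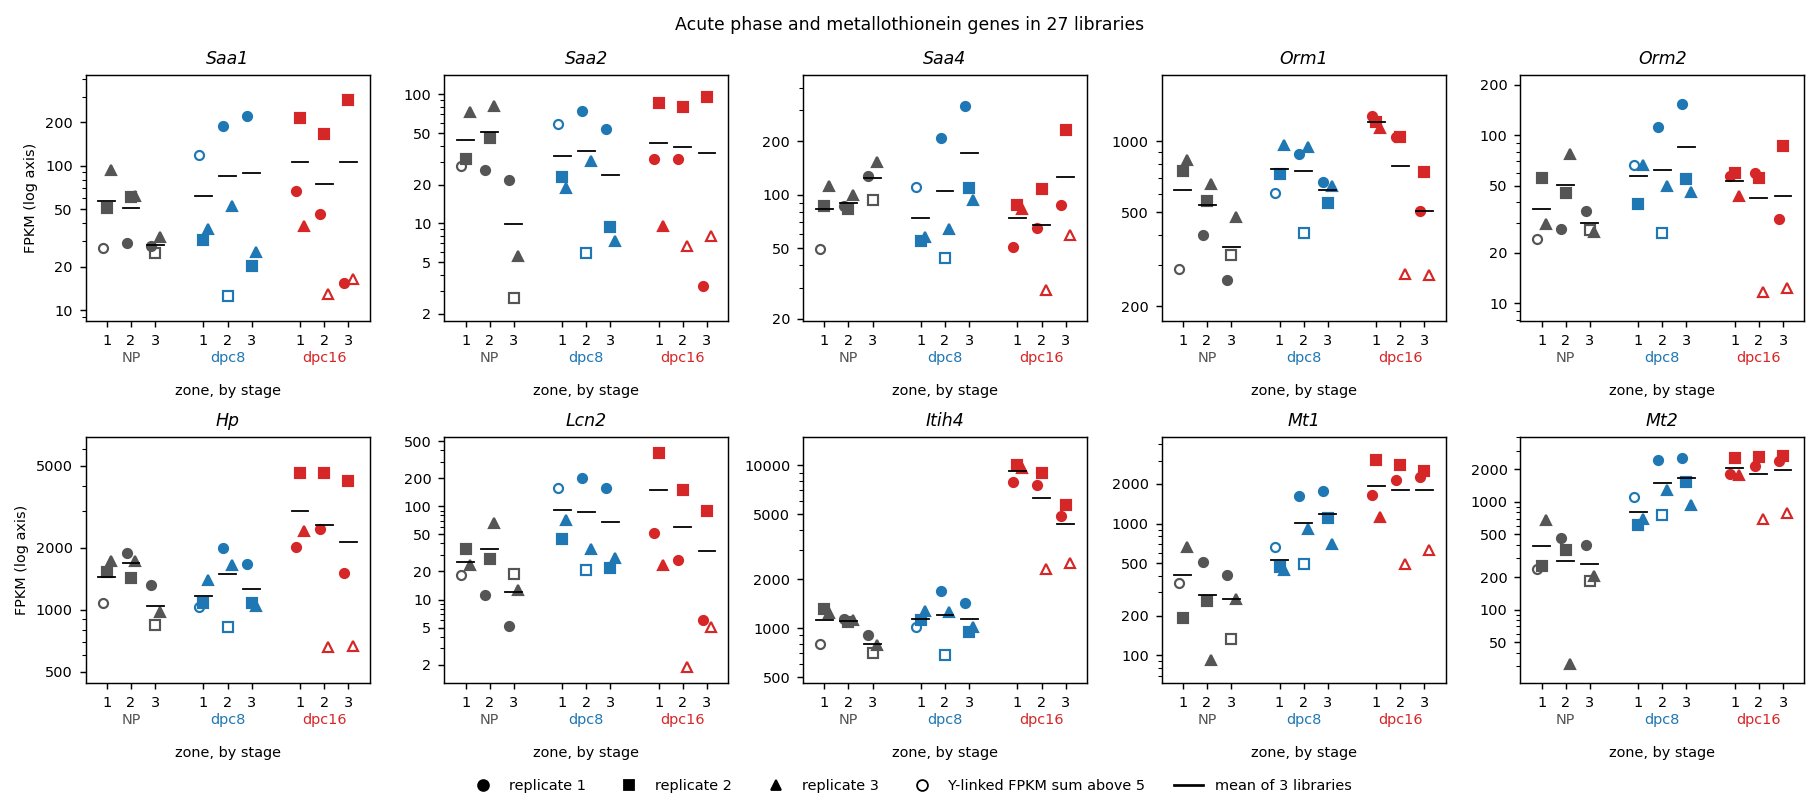
FPKM of the 10 genes on log axes, 1 panel per gene, with the libraries of zones 1, 2 and 3 side by side for NP (grey), dpc8 (blue) and dpc16 (red). Symbols give the replicate number, open symbols the 6 Y-positive libraries and bars the mean of 3 libraries. Itih4 lay between 2302 and 9986 at dpc16 and between 685 and 1693 in all other libraries, whereas Lcn2 ran from 1.89 to 372 within dpc16.

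Itih4 rose late in pregnancy in all zones. It encodes a plasma glycoprotein that the liver secretes and that is counted among the acute phase proteins, and it lies at chr14:30886476-30902353, plus strand (mm10 here and for all positions). Its NP levels in replicates 1, 2 and 3 were 799, 1311 and 1232 FPKM in zone 1, 1129, 1089 and 1113 in zone 2 and 901, 705 and 789.5 in zone 3. At dpc8 they were 1017, 1125 and 1269.8 in zone 1, 1693, 685 and 1246 in zone 2 and 1427, 952 and 1015 in zone 3. At dpc16 they were 7895, 9986 and 9666 in zone 1, 7538, 9000.0 and 2302 in zone 2 and 4855, 5674 and 2499 in zone 3. NP and dpc8 levels shared one range, and each of the 9 dpc16 libraries lay above all 18 others, the 2 lowest being Y-positive libraries.

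Against NP, the log2 fold change of Itih4 at dpc16 was 3.07 ± 0.41 (SE) in zone 1, 2.28 ± 0.41 in zone 2 and 2.37 ± 0.41 in zone 3, with adjusted p-values of 9.39e-05, 0.00263 and 0.00186 from limma. These are 8.38-, 4.85- and 5.15-fold higher levels. On the log2 scale the Y-positive libraries deviated from their group means by -1.23 in dpc16 zone 2 and -0.71 in dpc16 zone 3. In NP they deviated by -0.45 in zone 1 and -0.17 in zone 3. The fold changes of zones 2 and 3 are thus smaller with these libraries. Itih4 was the only one of the 10 genes called in zones 1 and 3, where 1.37% and 1.32% of all tested genes were called, and 1 of 3 called in zone 2, where 2.66% were. Against dpc8 it was higher by 3.01 ± 0.41, 2.25 ± 0.41 and 1.88 ± 0.41 (SE) in zones 1, 2 and 3, with adjusted p-values of 0.000158, 0.00415 and 0.0182. It was the only one of the 10 called in each of these comparisons, whose shares over all genes were 2.01%, 1.51% and 1.37%, and over the mean of the zones, where 11.1% were called. In zone 3 that call was lost without any 1 of 4 libraries, dpc8 replicate 2 or 3 and dpc16 replicate 1 or 2, with adjusted p-values of 0.0961 to 0.109. In this order they deviated from their group means by -0.23, -0.13, 0.24 and 0.47 on the log2 scale, beside the difference of 1.88. The dpc16 level over the mean of the zones was 5.94-fold that of NP (log2 fold change 2.57 ± 0.24, SE, adjusted p = 1.19e-07), where p-values are too small if zones share mice. With 1 value per stage and replicate number in place of 3, the adjusted p was 0.00267, and without the Y-positive libraries the log2 fold change was 2.79.

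The 300 bases around the Itih4 start site (RefSeq, GRCm38.p6, chr14:30886226-30886525, plus strand, 250 bases before the start and 50 from it on) are shown because Itih4 carried the clearest stage difference. The capitals mark the 1 match to the STAT site TTCNNNGAA, whose first base lies 51 bases before the start, on a search of both strands.
Itih4: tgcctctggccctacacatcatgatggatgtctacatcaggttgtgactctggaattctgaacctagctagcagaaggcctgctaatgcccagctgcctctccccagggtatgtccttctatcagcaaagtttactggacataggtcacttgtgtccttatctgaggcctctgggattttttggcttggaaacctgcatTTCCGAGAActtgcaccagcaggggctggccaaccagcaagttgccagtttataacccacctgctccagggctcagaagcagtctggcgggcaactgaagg
Of 32851 RefSeq promoter windows of this length, 8.3% held at least 1 such match, and none of the 7 other promoters found for the 10 genes did. A match to these letters is not a binding site.

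Mt1 and Mt2, the metallothioneins of the liver, rose from NP to dpc16. Mt1 in replicates 1, 2 and 3 of NP was 356, 193 and 666 FPKM in zone 1, 510.5, 259 and 91.5 in zone 2 and 403, 132 and 269 in zone 3. At dpc8 it was 660.2, 471 and 443 in zone 1, 1619.6, 494 and 906 in zone 2 and 1781, 1094 and 695 in zone 3. At dpc16 it was 1663, 3048 and 1121 in zone 1, 2128, 2787 and 489 in zone 2 and 2255, 2513 and 631 in zone 3. The dpc8 libraries thus lay between the other stages with overlap to both, and the 2 lowest dpc16 libraries were Y-positive.

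Mt2 in replicates 1, 2 and 3 of NP was 239, 253 and 681 FPKM in zone 1, 459.6, 355 and 31.1 in zone 2 and 400.1, 184 and 205 in zone 3. At dpc8 it was 1121, 606 and 697 in zone 1, 2454, 762 and 1304 in zone 2 and 2548, 1516 and 936 in zone 3. At dpc16 it was 1833, 2556 and 1767 in zone 1, 2142, 2594 and 696 in zone 2 and 2409, 2685 and 794 in zone 3. All 9 dpc16 libraries exceeded the 9 NP libraries, and NP zone 2 replicate 3 was the lowest NP library for both genes.

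Over the mean of the zones, dpc16 exceeded NP by 2.53 ± 0.41 (SE) on the log2 scale for Mt1 and 2.84 ± 0.44 for Mt2, which is 5.78-fold and 7.16-fold, with adjusted p-values of 0.000205 and 0.000126. With Itih4 they made 3 of 10 genes called, where 11.8% of all tested genes were. The calls held with 1 value per stage and number (adjusted p = 0.0378 for Mt1 and 0.0124 for Mt2) and without the Y-positive libraries (log2 fold changes of 2.85 and 3.06). Zone by zone the differences were of like size but fewer passed. In zone 2 they were 2.63 ± 0.71 (SE) for Mt1 and 3.17 ± 0.76 for Mt2, with adjusted p-values of 0.048 and 0.0224. Without NP zone 2 replicate 3 these became 1.97 and 1.96 with adjusted p-values of 0.229 and 0.15, and the calls were also lost without dpc16 zone 2 replicate 1 or 2 and, for Mt1, without NP zone 2 replicate 2. The Y-positive dpc16 zone 2 replicate 3 deviated from its group mean by -1.54 for Mt1 and -1.17 for Mt2, which lowers the zone 2 differences.

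In zone 1 the dpc16 against NP differences were 2.32 ± 0.71 (SE) for Mt1 and 2.55 ± 0.76 for Mt2, with adjusted p-values of 0.129 and 0.114. In zone 3 they were 2.65 ± 0.71 and 2.80 ± 0.76, with adjusted p-values of 0.0671 and 0.0722. The Y-positive library of dpc16 zone 3 deviated from its group mean by -1.28 for Mt1 and -1.12 for Mt2. That of NP zone 3 deviated by -0.87 and -0.43. With the number as a random block within stage, which ties only libraries of one stage, Mt1 passed in zone 3 at 0.0459 and Mt2 had an adjusted p of 0.0731.

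Between NP and dpc8, no gene of the 10 was called within a zone by limma, against 0.0309%, 0.00772% and 0.0154% of all tested genes in zones 1, 2 and 3. At an unadjusted p under 0.05 there was none in zone 1, and Mt1 and Mt2 in zones 2 and 3, where 5.06% and 2.74% of all genes lay under it (3.13% in zone 1). Over the mean of the zones Mt2 was 4.76-fold higher at dpc8 (log2 fold change 2.25 ± 0.44, SE, adjusted p = 0.0445), 1 of the 10 genes against 0.108% of all genes, while the log2 fold change of Mt1 was 1.56 ± 0.41 (adjusted p = 0.256). The Mt2 call was lost in 24 of the 35 other fits: the adjusted p was 0.267 with the number as a random block within stage, 0.738 with 1 value per stage and number, 0.0775 without the Y-positive libraries and 0.271 without replicate 1 of dpc8 in every zone. A lost call does not show that the difference was absent. Beside the difference of 2.25, that replicate deviated from its group means by 0.52, 0.87 and 0.73 in zones 1, 2 and 3. From dpc8 to dpc16 the mean log2 differences were 0.97 ± 0.41 (SE) for Mt1 and 0.59 ± 0.44 for Mt2, with adjusted p-values of 0.14 and 0.47. Without the Y-positive libraries that of Mt1 was 1.36 with an adjusted p of 0.0163.

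All 3 dpc16 libraries lay above all 3 NP libraries for 5 of the 10 genes in zone 1 (Orm1, Hp, Itih4, Mt1 and Mt2), for Itih4 and Mt2 in zone 2 and for Itih4, Mt1 and Mt2 in zone 3. Over all tested genes this held for 9.42%, 7.77% and 7.84% in zones 1, 2 and 3. Over all zones together it held for Itih4 and Mt2 among the 10, and for 0.818% of all tested genes.

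**Figure D2:**
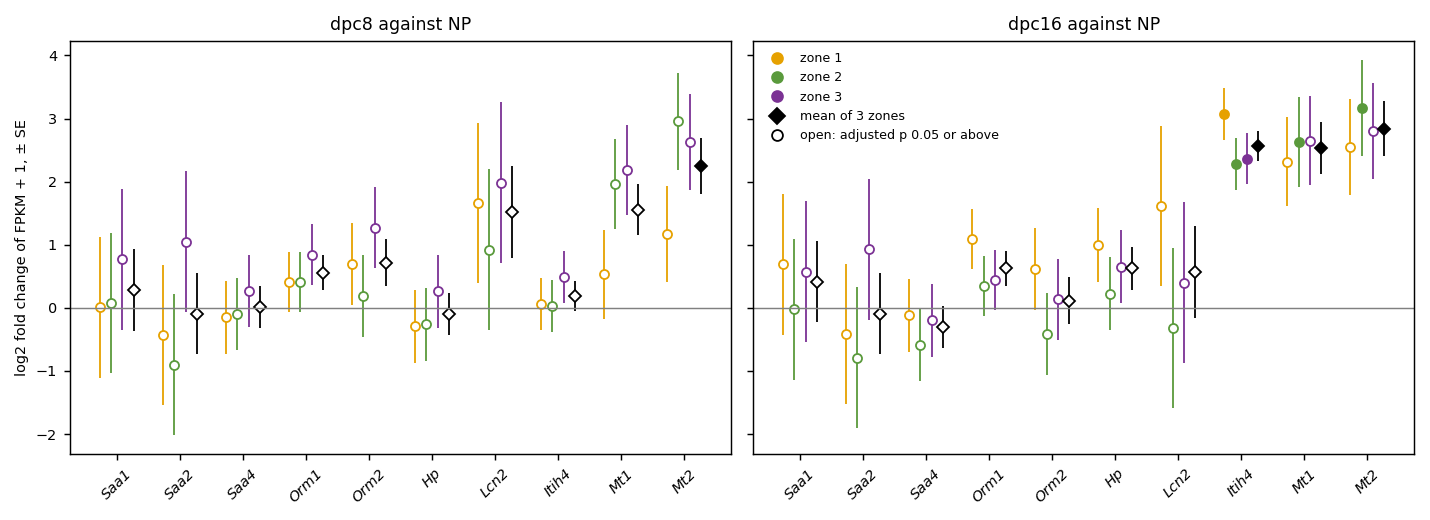
Log2 fold change of FPKM + 1 with its SE for the 10 genes at dpc8 (left) and dpc16 (right) against NP, in each zone (circles) and over the mean of the zones (diamonds). Filled symbols have an adjusted p under 0.05: Mt2 alone at dpc8, and Itih4, Mt1 and Mt2 at dpc16.

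Mt2 (chr8:94172664-94173568, plus strand) and Mt1 (chr8:94179082-94180327, plus strand) are neighbours, and Mt2 is overlapped by the antisense gene Gm45774. Since it was not given whether counting used the strand, reads of Mt2 and of that gene cannot be told apart. The ratio of Mt1 to Mt2 FPKM had a median of 0.778 over the 27 libraries and was 0.589 to 0.778 in the 9 dpc8 libraries, with a highest value of 2.94 in NP zone 2 replicate 3. Their promoter windows (RefSeq, GRCm38.p6) are shown because both genes moved together, with capitals marking the core of the metal response element, TGCACNC or TGCGCNC, on either strand. The Mt1 window is chr8:94178839-94179138, plus strand, and that of Mt2 chr8:94172368-94172667, plus strand.
Mt1: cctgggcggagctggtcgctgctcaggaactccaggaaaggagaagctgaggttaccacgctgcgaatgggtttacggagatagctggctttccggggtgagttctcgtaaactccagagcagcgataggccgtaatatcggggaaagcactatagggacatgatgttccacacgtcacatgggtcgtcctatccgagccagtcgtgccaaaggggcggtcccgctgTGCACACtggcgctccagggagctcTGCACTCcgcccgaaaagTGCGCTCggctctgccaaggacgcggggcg
Mt2: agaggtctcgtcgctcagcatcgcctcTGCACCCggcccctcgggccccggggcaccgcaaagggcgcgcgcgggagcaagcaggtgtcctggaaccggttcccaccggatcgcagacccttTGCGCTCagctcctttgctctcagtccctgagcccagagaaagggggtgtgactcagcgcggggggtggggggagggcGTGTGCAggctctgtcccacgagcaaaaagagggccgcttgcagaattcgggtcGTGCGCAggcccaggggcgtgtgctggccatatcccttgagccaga
Mt1 held 3 such cores, first bases at -23, 3 and 21 from the start site, and Mt2 held 4, at -223, -128, -50 and 5. Mt1 has 3 and Mt2 has 2 annotated transcripts, and each window shown is that of 1 start site. Positions and counts hold for that start only. At least 3 were found in 1.97% of the 32851 windows and at least 4 in 0.517%. None was found in the 6 other promoter windows of the genes described here. The windows of Mt1 and Mt2 were identical at 65.9% of 232 aligned bases. Mt2 also held 1 match to the C/EBP core TTGCNNAA at -12, which overlaps none of the metal response cores and is left in lower case.

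Saa1, Saa2 and Lcn2 had the widest spread within groups of the 10 genes, and none of them was called between stages. Saa1 and Saa2 encode the acute phase apolipoproteins of high-density lipoprotein, Saa4 a form that is made constitutively, and Lcn2 a protein that binds bacterial iron carriers and is also made by neutrophils. Saa1 in replicates 1, 2 and 3 of NP was 27.1, 51.1 and 92.7 FPKM in zone 1, 29.3, 60.4 and 62.0 in zone 2 and 27.9, 25.0 and 32.3 in zone 3. At dpc8 it was 119, 30.4 and 36.3 in zone 1, 188, 12.6 and 52.5 in zone 2 and 219.7, 20.3 and 25.3 in zone 3. At dpc16 it was 67.3, 215 and 37.9 in zone 1, 46.5, 166 and 13.0 in zone 2 and 15.4, 285 and 16.6 in zone 3. Replicate 1 was thus the highest in every zone at dpc8 and replicate 2 in every zone at dpc16, and all pairs of stages overlapped.

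Lcn2 in replicates 1, 2 and 3 of NP was 18.4, 34.7 and 23.4 FPKM in zone 1, 11.3, 27.2 and 66.1 in zone 2 and 5.23, 18.7 and 12.6 in zone 3. At dpc8 it was 158, 45.1 and 70.7 in zone 1, 202, 20.9 and 34.7 in zone 2 and 156, 21.9 and 27.8 in zone 3. At dpc16 it was 51.6, 372 and 23.4 in zone 1, 26.4, 149.9 and 1.89 in zone 2 and 6.03, 89.6 and 5.03 in zone 3. At dpc8 and dpc16 the highest replicates were the same as for Saa1, while in NP no replicate was the highest in all zones, and within dpc16 the highest library was 197-fold above the lowest, which was Y-positive, and 61.8-fold without the Y-positive libraries.

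In replicates 1, 2 and 3 of NP Saa2 was 28.0, 31.5 and 73.0 FPKM in zone 1, 26.1, 45.6 and 81.9 in zone 2 and 21.5, 2.63 and 5.64 in zone 3. At dpc8 it was 58.9, 22.9 and 18.9 FPKM in zone 1, 73.8, 5.90 and 30.3 in zone 2 and 54.0, 9.43 and 7.35 in zone 3. At dpc16 it was 31.5, 85.4 and 9.50 in zone 1, 31.4, 80.3 and 6.67 in zone 2 and 3.30, 94.9 and 8.02 in zone 3. Its highest replicates at dpc8 and dpc16 were those of Saa1, whereas in NP zone 3 Saa1 was near level and Saa2 was high in replicate 1 alone, the lowest being the Y-positive replicate 2. Saa4 varied less, at 49.4 to 154 in NP, 43.9 to 317 in dpc8 and 29.1 to 231 in dpc16 libraries, with the same replicates highest in the pregnant stages.

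Replicate 1 was the highest of the 3 in every zone at dpc8 for 6 of the 10 genes (Saa1, Saa2, Saa4, Lcn2, Mt1 and Mt2), against 6.03% of all tested genes. At dpc16 replicate 2 was the highest in every zone for 8 of them (all but Orm1 and Orm2), against 5.52% of all tested genes. In NP replicate 3 was so for 3 (Saa1, Saa4 and Orm1), against 6.17%. Whether one number joins zones or stages in a single experiment is not stated in the labels, and one source shared by the zones cannot be told apart from another shared step. The SD within groups on the log2 scale was 1.68 for Lcn2, 1.48 for Saa2 and 1.48 for Saa1, and 1.22% to 1.98% of all tested genes had a larger one. It was 1.01 for Mt2, 0.93 for Mt1, 0.86 for Orm2, 0.76 for Saa4, 0.75 for Hp, 0.62 for Orm1 and 0.51 for Itih4, and the median over all tested genes was 0.45.

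**Figure D3:**
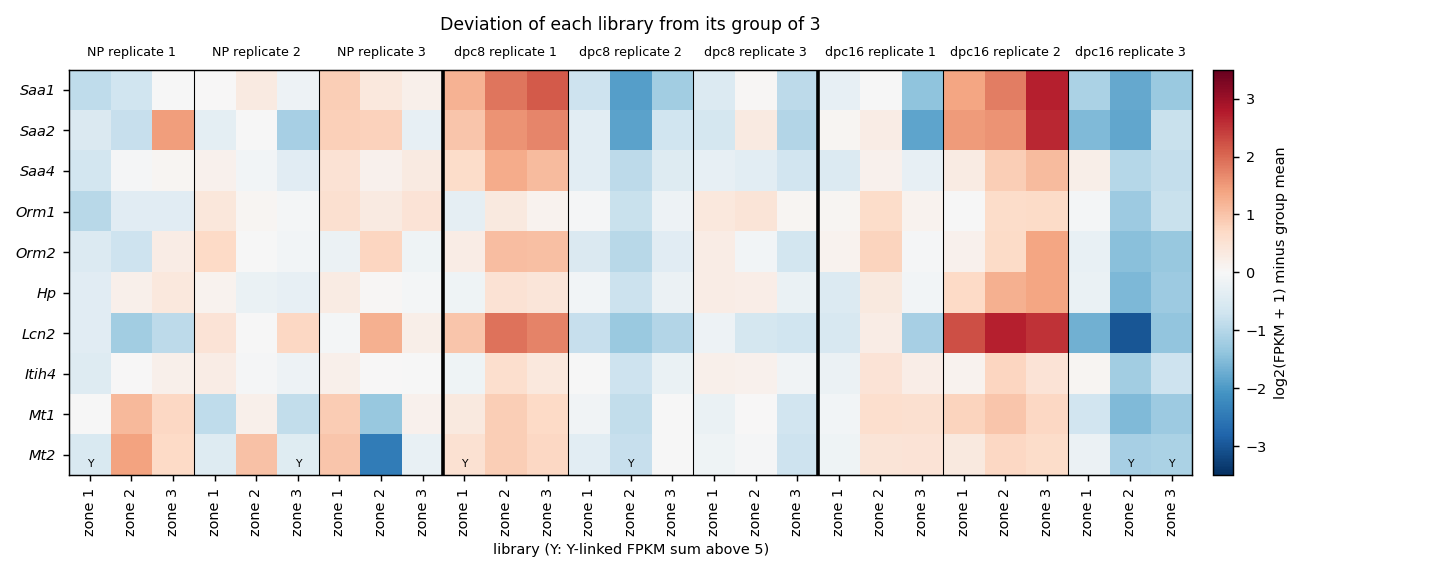
Deviation of log2(FPKM + 1) from the mean of the 3 libraries of its group, for the 10 genes (rows of tiles) and 27 libraries ordered by stage, replicate number and zone, with Y below the 6 Y-positive libraries. Replicate 1 of dpc8 and replicate 2 of dpc16 are red for Saa1, Saa2 and Lcn2 in all zones, and the mean deviation of these genes reached 2.63 in dpc16 zone 3 replicate 2.

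With that spread, the mean differences of Saa1 were not called: 0.28 ± 0.64 (SE) at dpc8 and 0.41 ± 0.64 at dpc16 against NP, with adjusted p-values of 1 and 0.777. Without replicate 1 of dpc8 and replicate 2 of dpc16 in all zones they turned to -0.59 and -0.57. For Lcn2 the differences from NP were 1.52 ± 0.73 (SE) at dpc8 and 0.56 ± 0.73 at dpc16, with adjusted p-values of 0.816 and 0.724, and that of dpc16 turned to -0.69 without replicate 2. The dpc8 difference leaned on replicate 1, which deviated from its group means by 0.98, 1.91 and 1.74 in zones 1, 2 and 3. Between dpc16 and dpc8 Lcn2 differed by -0.96 ± 0.73 with an adjusted p of 0.485, which became -2.21 with an adjusted p of 0.0334 without dpc16 replicate 2. Neither Saa2 nor Saa4 was called between stages.

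Of 9 neutrophil genes, S100a8, S100a9 and Retnlg passed the filter, while Camp, Ltf, Ngp, Mpo and Elane, which encode granule proteins, were at 0 in 27, 25, 24, 22 and 21 libraries and the receptor gene Cxcr2 in 18. Of the 3 tested, S100a9 was higher at dpc16 than at dpc8 over the mean of the zones (log2 fold change 1.68 ± 0.47, SE, adjusted p = 0.0227), and none was called in the other comparisons. The sum over the 9 genes was 0.304 to 26.1 FPKM in NP, 0 to 3.26 in dpc8 and 0 to 26.3 in dpc16 libraries. The sum was 17.4, 21.5 and 26.3 in zones 1, 2 and 3 of dpc16 replicate 2, the 3 highest dpc16 values, and 1.74, 0 and 3.26 in dpc8 replicate 1, where Lcn2 was also high. In NP the highest sum, 26.1, was in zone 2 replicate 3, the library with the most Lcn2 of that stage. Its part in the Lcn2 levels was not tested. Of 6 Kupffer cell genes, the macrophages of the liver, 3 were lower at dpc16 than in NP over the mean of the zones, beside 6.15% of all tested genes, and the sum over the list ranged from 24.5 to 299.6 FPKM over the 27 libraries.

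The promoter windows of Saa1 (chr7:46742931-46743230, minus strand) and Saa2 (chr7:46751583-46751882, plus strand), divergent neighbours on chromosome 7, are shown because their RNA varied together and may be hard to separate. Capitals mark the C/EBP core TTGCNNAA.
Saa1: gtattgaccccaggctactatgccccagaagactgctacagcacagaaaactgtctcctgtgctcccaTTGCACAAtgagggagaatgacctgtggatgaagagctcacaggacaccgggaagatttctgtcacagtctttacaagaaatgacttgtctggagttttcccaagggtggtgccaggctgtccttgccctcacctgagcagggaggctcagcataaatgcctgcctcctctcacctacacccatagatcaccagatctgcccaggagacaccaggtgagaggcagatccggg
Saa2: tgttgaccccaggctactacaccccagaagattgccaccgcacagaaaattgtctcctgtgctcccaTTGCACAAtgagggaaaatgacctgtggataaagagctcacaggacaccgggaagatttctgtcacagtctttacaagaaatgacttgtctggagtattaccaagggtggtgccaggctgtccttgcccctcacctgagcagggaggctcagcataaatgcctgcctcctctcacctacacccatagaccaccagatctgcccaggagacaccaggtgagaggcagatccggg
The windows were identical at 96.0% of 299 aligned bases and each held 1 core, first base at -182 and -183, as at least 1 was held by 10.8% of the 32851 windows. Saa4 held 2, Orm2, Lcn2 and Mt2 held 1 each, and Itih4 and Mt1 none. The longest coding transcripts of Saa1 and Saa2 were identical at 94.4% of 606 aligned bases, and those of Orm1 and Orm2 at 91.0% of 775, so that uniquely mapped reads may split unevenly within these pairs and their separate levels are uncertain. The Saa1 to Saa2 ratio of FPKM had a median of 2.07 and ran from 0.758 to 9.51.

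Orm1, which encodes a carrier of drugs and lipids in plasma, had a higher mean in zone 1 than in zone 3 at each stage. Its NP levels in replicates 1, 2 and 3 were 289, 748 and 836 FPKM in zone 1, 401, 555 and 657 in zone 2 and 259, 329 and 477 in zone 3. At dpc8 they were 602, 725 and 967 in zone 1, 884, 409 and 949 in zone 2 and 671, 547 and 644 in zone 3. At dpc16 they were 1278, 1208 and 1142 in zone 1, 1045, 1045 and 274 in zone 2 and 505, 741 and 272 in zone 3. The Y-positive library was the lowest of its group in 5 of the 6 groups that held one, NP zone 3 being the exception. Over the mean of the stages Orm1 differed between zones 1 and 3 by 0.79 ± 0.28 (SE) with an adjusted p of 0.117, and no gene of the 10 was called in that comparison, against 5.59% of all tested genes, while 4 (Orm1, Itih4, Saa2 and Saa4) had an unadjusted p under 0.05, against 15.4%. Without the Y-positive libraries the difference was 0.86 with an adjusted p of 0.000919, and a random block of number within stage gave an adjusted p of 0.0392.

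Between stages, Orm1 differed by 0.63 ± 0.28 (SE) between dpc16 and NP over the mean of the zones, with an adjusted p of 0.163, and by 0.80 with an adjusted p of 0.00117 without the Y-positive libraries. Orm2, its near copy, was much lower, at 24.1 to 78.0 FPKM in NP, 26.2 to 154 in dpc8 and 11.7 to 86.2 in dpc16 libraries, and was not called between stages or zones. The ratio of Orm1 to Orm2 had a median of 14.5, with a range of 4.37 to 28.2.

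Hp encodes the plasma protein that captures free haemoglobin. It was 839 to 1894 with a median of 1425 FPKM in the 9 NP libraries and 821 to 2000.3 with a median of 1079 in the 9 dpc8 libraries. At dpc16 it was 2025, 4609 and 2421 in zone 1, 2451, 4588 and 658 in zone 2 and 1505, 4191 and 668 in zone 3 of replicates 1, 2 and 3. Replicate 2 was the highest in each zone, and the Y-positive replicate 3 of zones 2 and 3 lay below every NP library. Hp differed over the mean of the zones by 0.62 ± 0.34 (SE) between dpc16 and NP and by 0.72 ± 0.34 between dpc16 and dpc8, with adjusted p-values of 0.271 and 0.191. Without the Y-positive libraries these were 0.98 and 1.04, with adjusted p-values of 0.00831 and 0.0053. That fit leaves only replicate 1 and the high replicate 2 in zones 2 and 3 of dpc16. In each of the 2 comparisons 31 of 35 other limma fits did not call Hp, with adjusted p-values of up to 0.927 and 0.820.

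Within single stages, limma called none of the 10 genes between zones 1 and 3, where 1.34% of all tested genes were called before pregnancy, 1.61% at dpc8 and 1.55% at dpc16. At an unadjusted p under 0.05 there was 1 gene in NP (Saa2, 2.34 ± 1.12, SE), none in dpc8 and 2 in dpc16 (Orm1, 1.37 ± 0.48, and Itih4, 1.16 ± 0.41), against 8.02%, 12.2% and 7.86% of all genes. Without the Y-positive libraries Orm1 passed in NP (1.17, adjusted p = 0.0338) and dpc16 (0.98, adjusted p = 0.0411), and Itih4 in dpc16 (0.80, adjusted p = 0.021). Across the stages, Saa2 had a difference of 1.40 ± 0.64 (SE) and Itih4 of 0.55 ± 0.24 toward zone 1, and Saa4 of -0.75 ± 0.33, toward zone 3, with adjusted p-values of 0.295, 0.247 and 0.263. Without the Y-positive libraries Itih4 passed there (0.50, adjusted p = 0.00677) and Saa4 had -0.95 with an adjusted p of 0.0746. The change from NP was compared between zones 1 and 3 directly, and limma called none of the 10 genes at dpc8 or dpc16, against 0% and 0.054% of all tested genes, and none had an unadjusted p under 0.05, against 2.36% and 3.16%.

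Other genes of the acute phase were read from a list of 20 positive acute phase proteins. Over the mean of the zones 6 were higher and 1 lower at dpc16 than in NP, where 5.65% of all tested genes were higher and 6.15% lower, with a median log2 fold change of 0.67 against -0.01 over all tested genes. The copper oxidase gene Cp was higher by 2.68 ± 0.24 (SE, adjusted p = 7.11e-08), close in size to Itih4. Serpina3n (1.23 ± 0.36), the lipopolysaccharide-binding protein gene Lbp (1.17 ± 0.28), Itih3 (0.95 ± 0.30), the haem carrier Hpx (0.88 ± 0.28) and Serpina1a (0.71 ± 0.23), whose reads may be shared with near-identical Serpina1 genes, were the others. Hamp, which encodes the iron hormone hepcidin, was lower (-3.09 ± 0.68, adjusted p = 0.0039). Without the Y-positive libraries 14 were higher and 1 lower, among them the fibrinogen genes Fga, Fgb and Fgg, and 8.54% of all tested genes were then higher and 8.05% lower. That fit leaves only replicates 1 and 2 in zones 2 and 3 of dpc16. Replicate 2 had the highest mean log2(FPKM + 1) of this list in each dpc16 zone, at 9.18, 9.09 and 8.52, against 8.55, 8.41 and 7.54 in replicate 1. With 1 value per stage and number only Cp passed, with 1.48% of all tested genes higher and 1.6% lower. In limma none of the 20 passed between dpc8 and NP, where 0.108% of all tested genes did, and 3 had an unadjusted p under 0.05, as did 6.11% of all tested genes.

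Of 7 negative acute phase proteins tested, 5 were higher and 1 lower at dpc16 than in NP, beside 5.65% and 6.15% of all tested genes, with a median log2 fold change of 0.95. Transferrin, listed under the symbol Tf, was not among those tested. Serpina6, which encodes the corticosteroid-binding globulin of plasma, was higher by 5.63 ± 0.28 (SE, adjusted p = 6.71e-12), and Alb (1.54 ± 0.28), Ahsg (0.95 ± 0.23), Fetub (0.64 ± 0.20) and Apoa1 were also higher. The thyroid hormone carrier Ttr was lower (-1.49 ± 0.22, adjusted p = 7.72e-05). With quantile normalization 3 were higher and 1 lower, and with 1 value per stage and number 1 of each, Serpina6 and Ttr. Since Alb held up to 21.0% of the FPKM sum at dpc16, the scale of the other genes rests on the normalization, and quantile normalization and size factors moved the median of this comparison over all genes by less than 0.1. Both methods align the bulk of the genes, so this median cannot show whether single genes are shifted.

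**Figure D4:**
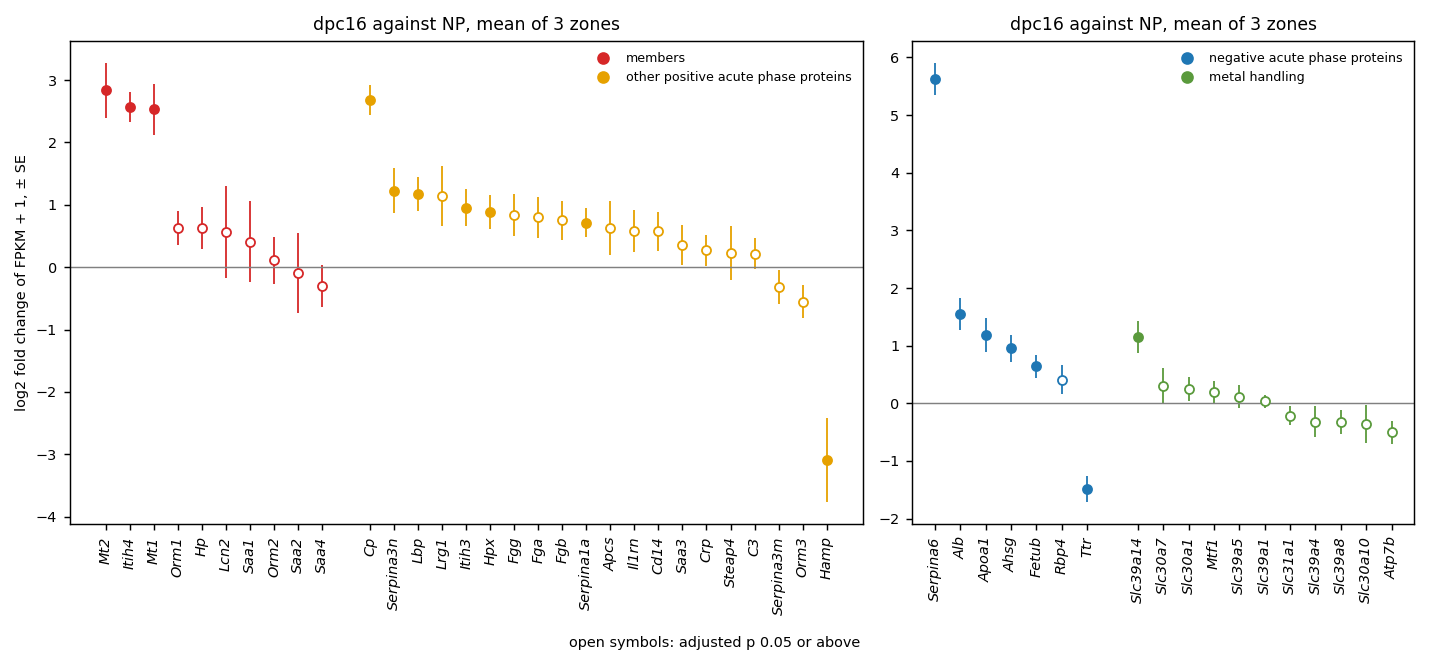
Log2 fold change of FPKM + 1 with its SE for dpc16 against NP over the mean of the zones, sorted within each list: the 10 genes and 20 other positive acute phase proteins (left), 7 negative acute phase proteins and 11 metal handling genes (right). Filled symbols have an adjusted p under 0.05, and Serpina6 (5.63), Mt2 (2.84), Cp (2.68), Itih4 (2.57) and Mt1 (2.53) lie highest while Hamp (-3.09) lies lowest.

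The signals that act on these targets were read from 3 further lists, in a comparison that called 11.8% of all tested genes. Of 16 tested genes of cytokine signalling to the acute phase, Tnfrsf1a, a tumour necrosis factor receptor, was higher (0.63 ± 0.15, SE) and Il1rap, a chain of the interleukin-1 receptor, lower (-0.82 ± 0.17) at dpc16 than in NP, and the list median was 0.04. Of 10 genes of glucocorticoid signalling, Fkbp5 (1.36 ± 0.38) and Hsd11b1 (1.02 ± 0.25), which regenerates active glucocorticoid, were higher and the receptor gene Nr3c1 was lower (-0.54 ± 0.14). Of 11 tested metal handling genes only the zinc and iron importer Slc39a14 passed (1.15 ± 0.28), beside Mt1 and Mt2, while the metal sensor gene Mtf1 (0.19 ± 0.20) and the zinc exporter Slc30a1 (0.25 ± 0.21) had adjusted p-values of 0.637 and 0.522. With 1 value per stage and number, none of the genes of these last 3 lists passed. Between dpc8 and NP limma called none of the negative acute phase, cytokine, glucocorticoid and metal handling genes, and 2 of 7, 4 of 16, 0 of 10 and 0 of 11 had an unadjusted p under 0.05, beside 6.11% of all tested genes. The metallothionein genes Mt3 and Mt4 were at 0 in 25 and 27 libraries.

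Across the 27 libraries, which differ in stage, zone and depth, Pearson's r of log2(FPKM + 1) described how the genes varied together. It was 0.95 for Mt1 and Mt2, 0.86 for Saa1 and Saa2, 0.85 for Saa1 and Lcn2, 0.83 for Orm2 and Lcn2, 0.67 for Orm1 and Orm2 and -0.02 for Saa4 and Itih4. For deviations from the group means, in the same order of pairs, r was 0.89, 0.93, 0.91, 0.82, 0.75 and 0.79. All 45 pairs of the 10 genes had a positive r of this kind, from 0.29 to 0.93. In the 21 libraries that were not Y-positive 40 of 45 were positive, from -0.43 to 0.92. There the r of deviations of the same 6 pairs was 0.89, 0.92, 0.92, 0.75, 0.42 and 0.88, and that of levels 0.96, 0.85, 0.83, 0.76, 0.39 and -0.14. Over all 27 libraries, the 3 other genes with the highest r of levels were Cp (0.967), Dnah11 (0.961) and Serpina16 (0.955) for Itih4, Fgb (0.934), Fga (0.934) and Fgg (0.898) for Hp and Hc (0.930), Apof (0.905) and Cyp3a13 (0.896) for Orm1. They were Steap4 (0.861), Egfr (0.856) and Cxcl1 (0.804) for Saa1, Cxcl1 (0.769), Nos1ap (0.757) and Cd163 (0.742) for Saa2, Helb (0.865), Cxcl1 (0.848) and Lrg1 (0.841) for Lcn2 and Snx10 (0.838), Gfra1 (0.817) and Il1r1 (0.808) for Saa4. They were Btd (0.818), Nnmt (0.800) and Cyp3a13 (0.792) for Orm2, Pnpla2 (0.838), Slc41a3 (0.828) and Slc6a9 (0.823) for Mt1 and Herpud2 (0.843), Fam84b (0.842) and Ugt1a10 (0.822) for Mt2. By levels, Hp thus went with the 3 fibrinogen chains and Itih4 with Cp, and the neutrophil chemokine gene Cxcl1 was among the 3 for Saa1, Saa2 and Lcn2. For deviations from the group means, r was 0.913, 0.918 and 0.869 for Hp with Fgb, Fga and Fgg. The values for Itih4 were lower, at 0.785 with Cp, 0.649 with Dnah11 and 0.600 with Serpina16. With Cxcl1 they were 0.872 for Saa1, 0.818 for Saa2 and 0.867 for Lcn2.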

How the data were processed

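Single-end reads were trimmed (cutadapt 1.18) and aligned to mm10 (HISAT2 2.1.0) by the authors. From uniquely mapped reads the authors obtained FPKM for protein-coding genes of GENCODE using Cuffdiff (Cufflinks 2.2.1). Ribosomal RNA had been depleted before library preparation. The deposited table holds these FPKM values for 21823 genes and 27 libraries and no read counts; depth was estimated from the steps of low values, of which 93.0% to 99.4% per library lay within 0.1 of a whole number of reads. Depths are estimates, and no counting interval was drawn from them.

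The test was that of limma (3.58.1, R 4.3.3) on values transformed as log2(FPKM + 1), which understates the change of low genes. The 12952 genes that reached an FPKM of 1 in 3 or more libraries entered it. A mean was fitted to each of 9 groups with an intensity trend and robust moderation, and two-sided p-values received a Benjamini-Hochberg adjustment over all tested genes within each comparison at a threshold of 0.05. The fit was checked on simulated data with known changes.

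The 10 genes and all lists were chosen with earlier results of these data known. Named were all 10 genes, list genes called in a comparison, and for each of the 10 the 3 other genes of highest r. Mtf1, Slc30a1, Mt3, Mt4 and the neutrophil genes other than S100a9 were named after their values were seen. Tf was named as a list entry that was not tested. Promoters came from RefSeq on GRCm38.p6 (8 of 10 genes matched; Orm1 and Hp did not), and gene positions from GENCODE vM21 on mm10, in which all 10 identifiers matched. Alternatives were a pseudocount of 0.1, no filter, quantile normalization, size factors, array weights, only the groups compared, the replicate number as a block, a connective tissue covariate, no Y-positive libraries, each library left out and 1 mean of the zones per stage and number. Leaving out all libraries of 1 stage and number was added after seeing the data.

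Replicate numbers recur in every group. The deviations from group means of same-numbered libraries of different zones correlated over 0.1 in 9 of 9 pairs at dpc16 (0.263 to 0.863). This held in 5 of 9 pairs at dpc8 and in 4 of 9 in NP. The dpc16 libraries may thus be paired by the number within that stage. The main fit held no term for the number, so its p-values leave any such pairing out. The number entered only the alternative fits. Supplementary tables of the study were not used.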

Additional observations from a re-analysis of the deposited data

How the results depend on the processing

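The cause was not tested where a call changed. With only the groups compared, which leaves 6 libraries and fewer degrees of freedom within a zone, 0 of the 10 genes were called for dpc16 against NP in zones 2 and 3, for dpc16 against dpc8 in zones 2 and 3 and for dpc8 against NP over the zones. The last count was also 0 with a pseudocount of 0.1, no filter, the replicate block within stage, the Y-positive libraries left out and zone means by number, 3 with the covariate for connective tissue and 2 with array weights (0.417% and 0.556% of all tested genes). In zone 3, dpc16 against NP gave 2 with quantile normalization, the replicate block within stage and without Y-positive libraries, and 3 with array weights, the covariate and the replicate block as a fixed term, which also ties libraries of different stages that share only a number, in fits that called 1.19% to 5.99% of all tested genes. Array weights gave 3 for dpc16 against NP in zone 1, 2 for dpc16 against dpc8 in zone 1, and 5 and 4 for these over the zones, where it called 5.15%, 7.77%, 22.4% and 27.2% of all tested genes. Without Y-positive libraries the last were 5 and 3, with 16.6% and 18.7% of all tested genes. Between zones 1 and 3, 1 gene was called in NP with the covariate or without Y-positive libraries, 1 in dpc8 with the covariate, and 2 in dpc16 with array weights, the covariate or without Y-positive libraries, in fits that called 1.81% to 2.21%, 1.99% and 2.56% to 3.83% of all tested genes. Over the stages 2 were called with quantile normalization, array weights, the covariate or without Y-positive libraries, and 1 with the replicate block within stage, with 5.19%, 11.2%, 8.34%, 8.18% and 7.87% of all tested genes. The replicate block changed no other count by over 1.5 times.

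Leaving out 1 library, or 1 number of a stage, moved the count between 0 and 1 for dpc8 against NP over the zones, 3 and 5 for dpc16 against NP over the zones, 1 and 3 for dpc16 against dpc8 over the zones, 1 and 3 for dpc16 against NP in zones 2 and 3, 0 and 1 for dpc16 against dpc8 in zone 3, and 0 and 1 between zones over the stages. It stayed at 1 for dpc16 against NP and against dpc8 in zone 1 and against dpc8 in zone 2, and at 0 elsewhere.

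For Saa1, dpc8 against NP over the zones turned to -0.027, -0.074 and -0.59 without dpc8 replicate 1 in zone 2, zone 3 and all zones, and reached 0.61 without dpc8 zone 2 replicate 2. Its dpc16 against NP difference turned to -0.041 and -0.57 without dpc16 replicate 2 in zone 3 and all zones, and reached 0.71 without dpc16 zone 2 replicate 3. For Lcn2, dpc16 against NP turned to -0.69 without dpc16 replicate 2 of all zones, and dpc16 against dpc8 to 0.10 with array weights and 0.049 without dpc16 replicate 3 of all zones. With 3 libraries a group and the spread of Saa1, Saa2 and Lcn2 within groups, their stage differences have wide errors.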
